A study of Homo sapiens with 32 samples.

Results

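In AsPC1 cells, 1093 genomic regions were bound by HNF4α in both control libraries and carried no called HNF4α peak in any library of either CRISPRi arm. These regions were chosen by the peak calls themselves. Overlapping peaks (1 bp or more) of the 6 AsPC1 lists made with the pan-HNF4α antibody were merged into 28217 regions. Of these, 13688 held a peak of both control lists, and the 1093 lost regions are the 7.99% of them that held no peak of the 4 CRISPRi lists. Another 7462 regions (54.5%) held a peak of all 4 CRISPRi lists and are called kept below, and the 5133 regions with a peak of 1 to 3 of those lists are called partly kept. "Lost" therefore means that no peak passed the deposited threshold, which is not the same as no binding.

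AsPC1 (ASPC1 in the labels), Panc10.05 and BxPC3 are human pancreatic ductal adenocarcinoma lines grown as flat cultures, and all were crosslinked with disuccinimidyl glutarate and formaldehyde before chromatin immunoprecipitation. The AsPC1 genotypes were sgNC, a control guide, sgP1 (sgP1E in the titles) and sgP2 (sgP2D in the titles), guides for CRISPR interference at the 2 promoters of HNF4A, and no doxycycline is stated for them. Each AsPC1 genotype had 2 libraries with the pan antibody, and sgNC and sgP2 had 2 more each with an antibody to the P1 isoforms. Panc10.05 and BxPC3 cells expressed one introduced isoform under doxycycline. It was P1-α2 or P2-α8, at 25 ng/mL and 12.5 ng/mL in Panc10.05 and at 500 ng/mL for both in BxPC3, with 2 pan-antibody libraries per group. The doses thus differed between isoforms in Panc10.05. The BxPC3 α8 libraries carry P1 in their titles and P2-α8 in the genotype label, and the genotype label was used. The labels do not say whether replicates came from separate cultures, so each p-value measures only the spread between these libraries.

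HNF4α is a nuclear receptor that binds DNA as a homodimer, at direct repeats of a short core sequence. The P1 and P2 promoters of HNF4A give proteins that share the DNA-binding domain and differ at the N terminus. In CRISPR interference, a catalytically dead Cas9 fused to a repressor is guided to a promoter and lowers transcription from it without cutting. In liver, gut and pancreas HNF4α is known for holding epithelial identity and for metabolic gene programmes.

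With the pan antibody, the sgNC lists of AsPC1 had 24295 and 15118 peaks. Those of sgP1 had 14038 and 11686, and those of sgP2 had 12345 and 15116. The sgNC list of replicate 1 was the longest, so a region of both sgNC lists had to be found in the shorter replicate 2 list too. The read depth behind the lists is not given in the sources used here, and list length can follow depth, the quality of the immunoprecipitation or binding. These cannot be told apart. The lowest −log10 q was near 2 in every AsPC1 list and near 8 in every Panc10.05 and BxPC3 list.

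Promoter sequence could be read for lost regions that overlap the RefSeq window (GRCh38.p14) from 250 bases before to 50 after a transcription start. The lines below give the bases before the start that lie inside the lost region, 5′ to 3′ in the direction of the gene. Capitals mark a match on either strand to CAAAGNNCA, a relaxed HNF4 site, or to AGGTCA, the nuclear receptor core motif. Adjoining matches run together. WNT5B, IGFL2 and FAM83E stand for the strongest promoter regions, and none of the 3 stretches holds a match. SLC23A3 and PRPF38B, of the same ranking, hold the core motif. CYP27A1, C9orf85 and PPP2CA are shown because they hold the relaxed HNF4 site within the lost region, and were chosen after their values were seen. NR5A2 belongs to the list of endoderm factors described further on.
WNT5B chr12:1629173-1629230 plus strand: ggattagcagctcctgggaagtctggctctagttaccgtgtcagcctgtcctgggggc
IGFL2 chr19:46147988-46148237 plus strand: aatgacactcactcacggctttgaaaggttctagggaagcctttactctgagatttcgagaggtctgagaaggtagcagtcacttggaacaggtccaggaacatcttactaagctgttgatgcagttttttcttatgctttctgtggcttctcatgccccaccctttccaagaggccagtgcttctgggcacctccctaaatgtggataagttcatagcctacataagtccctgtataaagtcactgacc
FAM83E chr19:48615077-48615326 minus strand: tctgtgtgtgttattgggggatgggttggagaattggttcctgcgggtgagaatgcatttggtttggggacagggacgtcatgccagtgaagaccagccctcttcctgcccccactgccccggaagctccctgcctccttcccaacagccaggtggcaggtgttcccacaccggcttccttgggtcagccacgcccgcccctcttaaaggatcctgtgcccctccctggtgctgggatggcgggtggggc
SLC23A3 chr2:219170030-219170279 minus strand: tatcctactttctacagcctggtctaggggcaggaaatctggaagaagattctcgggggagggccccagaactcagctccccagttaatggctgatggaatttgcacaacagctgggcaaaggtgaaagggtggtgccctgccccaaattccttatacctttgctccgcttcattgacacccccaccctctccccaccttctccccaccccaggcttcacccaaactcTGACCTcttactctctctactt
PRPF38B chr1:108692060-108692243 plus strand: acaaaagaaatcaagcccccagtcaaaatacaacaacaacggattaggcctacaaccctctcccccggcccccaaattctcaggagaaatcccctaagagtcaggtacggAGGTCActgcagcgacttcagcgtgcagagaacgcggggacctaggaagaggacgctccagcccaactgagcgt
CYP27A1 chr2:218781897-218782146 plus strand: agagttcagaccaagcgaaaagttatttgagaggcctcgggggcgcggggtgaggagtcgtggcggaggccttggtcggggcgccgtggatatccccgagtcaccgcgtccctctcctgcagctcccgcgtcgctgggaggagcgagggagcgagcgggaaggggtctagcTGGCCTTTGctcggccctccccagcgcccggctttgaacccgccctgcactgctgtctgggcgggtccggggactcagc
C9orf85 chr9:71911483-71911638 plus strand: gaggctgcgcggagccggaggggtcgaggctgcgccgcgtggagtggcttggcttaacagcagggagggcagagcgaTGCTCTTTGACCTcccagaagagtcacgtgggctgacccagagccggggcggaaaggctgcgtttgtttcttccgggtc
PPP2CA chr5:134226169-134226323 minus strand: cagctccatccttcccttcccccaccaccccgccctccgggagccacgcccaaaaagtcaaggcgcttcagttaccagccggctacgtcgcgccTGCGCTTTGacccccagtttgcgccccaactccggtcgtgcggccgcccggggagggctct
NR5A2 chr1:200027460-200027709 plus strand: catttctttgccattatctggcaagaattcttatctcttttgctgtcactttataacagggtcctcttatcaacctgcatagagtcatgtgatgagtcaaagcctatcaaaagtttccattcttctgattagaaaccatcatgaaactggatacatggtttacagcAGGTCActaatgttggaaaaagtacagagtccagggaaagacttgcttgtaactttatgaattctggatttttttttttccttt

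In the C9orf85 stretch, the relaxed site and the core motif overlap on the minus strand as a single run. The PPP2CA and CYP27A1 stretches hold the relaxed site and no exact match to AGGTCA. Near matches to the core motif were not searched. Letters that match are a description of the sequence and show no binding at that position.

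In both control lists the lost regions were the weaker ones. Strength is given as a percentile, the rank of a peak by the authors' fold enrichment within its own list, where 100 is the strongest peak. The median percentile of the lost regions was 36.8 in sgNC replicate 1 and 23.1 in replicate 2. Partly kept regions had medians of 55.6 and 35.5, and kept regions 83.8 and 73.8. The 2 control libraries thus ranked the 3 classes in the same order, although the values that made the classes come from lists of the same experiment, and no test is given. The median fold enrichment of the lost regions was 5.72 and 5.01, against 14.5 and 10.10 for kept regions. Their peaks were also narrower, with median widths of 355 bp and 292 bp against 742.5 bp and 569.5 bp. The median −log10 q was 9.08 and 6.22, and values under 5 made up 14.5% and 30.7% of the lost regions. Of the 1093, 68.5% ranked higher in replicate 1 than in replicate 2, and of the kept regions 77.8% did.

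**Figure D1:**
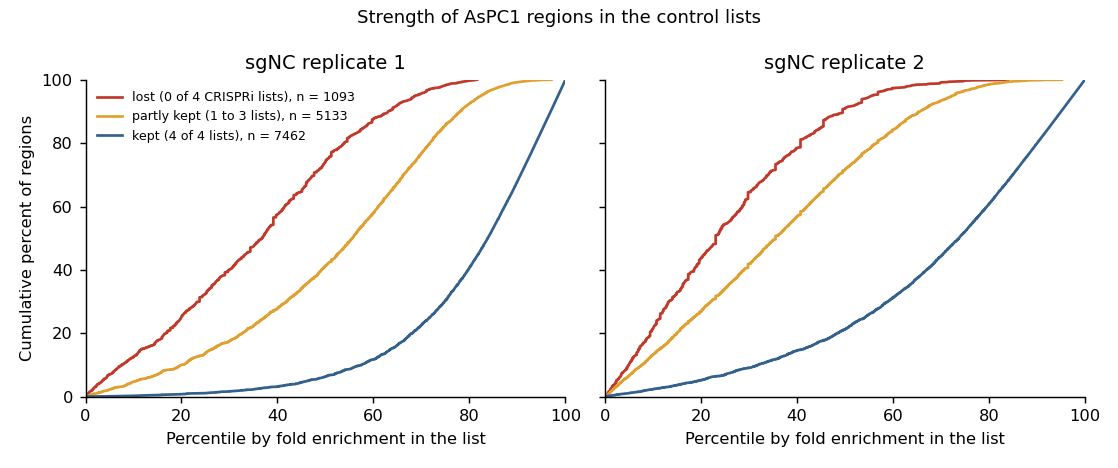
Cumulative percent of regions (vertical axis) against the percentile by fold enrichment (horizontal axis) in sgNC replicate 1 (left) and replicate 2 (right), for the 1093 lost, 5133 partly kept and 7462 kept regions. The lost regions lie furthest to the left in both libraries, with medians of 36.8 and 23.1.

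The share of regions that were lost followed the control strength closely. Taking the mean percentile over both sgNC lists, 284 of 845 regions under 20 were lost (33.6%), as were 694 of 4224 regions from 20 to 50 (16.4%). Above 50, 115 of 8619 regions were lost (1.33%). Above 90, 0 of 1738 regions were lost, and the strongest lost region had a mean percentile of 82.8. The median over all lost regions was 30.0.

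**Figure D2:**
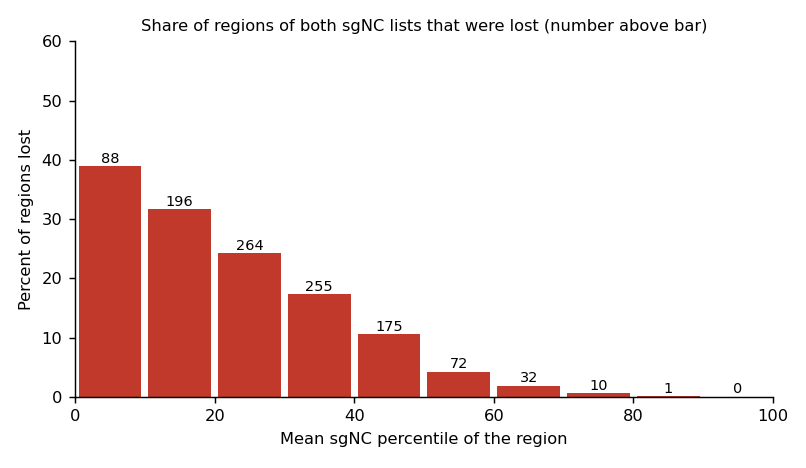
Percent of regions of both sgNC lists that were lost (vertical axis) in 10 equal steps of their mean sgNC percentile (horizontal axis), with the number of lost regions above each bar. The share is 38.9% in the lowest step and 0 in the highest.

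The count depended on where the threshold lay in each arm. When only sgNC peaks with a −log10 q of at least 20 were used and the CRISPRi lists were left whole, 6 of 5152 regions were lost (0.116%). When the same minimum was set in all 6 lists, 351 of 5152 were lost (6.81%). With all 6 lists at the length of the shortest, 11686 peaks, 249 of 9092 regions were lost (2.74%), and 171 of those 249 overlapped a lost region of the full lists. The 6 lost regions that reached a −log10 q of 20 in both sgNC lists lay near SPRY1, SIGLEC12, MEIS1, SORCS2, MSX2 and C3orf85, and all 6 are among the 12 strongest described below.

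Regions just outside the rule held CRISPRi peaks that ranked low in their own lists, at median percentiles from 20.2 to 27.5. In 1400 regions a single CRISPRi list held a peak, which was sgP1 replicate 1 in 418 regions, sgP1 replicate 2 in 167, sgP2 replicate 1 in 210 and sgP2 replicate 2 in 605. The longer list of each arm supplied more of them. The median −log10 q of those single peaks was 6.47, 5.69, 6.55 and 8.07 in the same order, above the lowest value of the lists, near 2. Between 18.2% and 37.7% of them were under 5, against 10.07% to 13.5% of the whole CRISPRi lists. Leaving out 1 CRISPRi list at a time, and so relaxing the rule, gave totals of 1260 to 1702 lost regions.

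By the rule no lost region overlaps a CRISPRi peak, so the distances to them are given as a description. The nearest CRISPRi peak was at a median distance of 16.5 kb. It lay within 500 bp for 48 lost regions and within 1 kb for 101, so 992 lost regions had none within 1 kb. The nearest kept region was at a median of 54.0 kb and the nearest other lost region at 488 kb. Another lost region lay within 50 kb for 115 of the 1093. The share lost ran from 6.32% of the regions on chromosome 15 to 10.6% on chromosome X, leaving aside chromosome Y with 4 regions.

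The 12 strongest lost regions lay mostly between genes, and they are named by the nearest protein-coding gene. The strongest was at chr4:123478754-123479179, 75.2 kb from SPRY1, an inhibitor of receptor tyrosine kinase signalling, with percentiles of 81.6 and 84.0 in the 2 sgNC lists. Its fold enrichment was 13.4 and 13.2, and the nearest CRISPRi peak was 25.9 kb away. Near MEIS1 (chr2:66240704-66241166) and MSX2 (chr5:174527812-174528220), 2 homeobox transcription factor genes, regions 194 kb and 197 kb away had percentiles of 78.1 and 74.8, and of 71.9 and 71.6. The regions near MAP9, a microtubule-associated protein gene, and ADGRL4, an adhesion receptor gene, had 73.0 and 67.5, and 74.7 and 64.8. These 5 regions had a peak in none of the 8 induced Panc10.05 and BxPC3 lists and in no P1-antibody list.

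Other regions among the 12 were bound in the induced lines. The region 366 kb from CXorf51A (chrX:147180690-147181241), with sgNC percentiles of 79.4 and 71.5, had a peak in all 8 induced lists. Those near C3orf85 and CARMIL1, the latter a regulator of actin capping, were found in 7 each. Regions inside FBXO46, an F-box gene, and PDK1, which encodes a kinase that inhibits pyruvate dehydrogenase, were found in 5 each. SIGLEC12, a sialic acid-binding lectin gene, had its region in 3, and SORCS2, a sorting receptor gene, in 2. The 12 strongest lost regions thus ranged from 0 to 8 induced lists.

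Few lost regions were at promoters. Start sites were available for the chromosomes that hold 1042 of the 1093 regions, from a RefSeq table with windows for 15842 of 20033 protein-coding genes. A promoter window was overlapped by 87 of the 1042 lost regions (8.35%), by 10.8% of partly kept and by 13.0% of kept regions. The order depended on strength. Under a mean sgNC percentile of 20 the shares were 14.9%, 16.1% and 14.3% in that order, from 20 to 50 they were 6.65%, 12.5% and 19.7%, and above 50 they were 2.68%, 7.35% and 12.2%. The lost regions above 50 overlapping a window number 3 of 112. The median distance from summit to the nearest start was 30.6 kb for lost, 28.5 kb for partly kept and 26.3 kb for kept regions. The middle lay inside a protein-coding gene for 49.9%, 52.0% and 55.8%. These shares describe the classes and were not tested.

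The strongest promoter region was at WNT5B (chr12:1629173-1629894), which encodes a secreted Wnt ligand, with percentiles of 80.8 and 55.6. It had no peak in the induced lists, and the sequence printed above is its upstream end. A region shared by the divergent genes ERP44, for a chaperone of the endoplasmic reticulum, and INVS, for a protein of the primary cilium, had 80.2 and 44.5 and a peak in 5 induced lists. IGFL2, of the IGF-like family, had 69.5 and 45.2. The other 9 by this ranking were SWSAP1, FAM83E, SLC23A3, PRPF38B, CCNH, FBXO7, LOC107984449, SH3BGRL3 and the LYRM4 and FARS2 pair, with mean percentiles from 49.0 down to 34.9. Of the 12 promoter regions, FAM83E had peaks in the most induced lists, 6, while WNT5B, SLC23A3 and LOC107984449 had none.

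Lower in the ranking, the promoter region of CYP27A1, the mitochondrial sterol hydroxylase of bile acid synthesis, had percentiles of 38.4 and 25.7 and no induced peak. That of PPP2CA, the catalytic subunit of protein phosphatase 2A, had 16.8 and 20.6, with peaks in 2 induced lists. C9orf85 had 10.6 and 49.5 in the 2 control lists, a wide disagreement, with 4 induced lists.

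Among the 109 windows under lost regions, 6 held CAAAGNNCA on either strand (5.50%). Whole windows were searched, so a match can lie outside the lost region. Windows of the same or neighbouring starts overlap and were counted separately, so a match can count more than once. The share was 7.02% of 698 windows under partly kept regions, 9.18% of 1198 windows under kept regions and 4.63% of all 22198 windows. The stricter CAAAGTCCA, which is a case of CAAAGNNCA, was in 0 of the 109, in 1.00% of the partly kept, 2.34% of the kept and 0.356% of all windows. AGGTCA, which can overlap either, was in 12.8% of the lost, 12.6% of the partly kept, 11.7% of the kept and 11.9% of all windows. TNTTTAC, a forkhead motif, was in 6.42%, 7.88%, 6.68% and 8.54% in that order. AGATAA, which GATA factors bind, was in 2.75%, 5.16%, 4.51% and 7.91%. TGANTCA, an AP-1 motif, was in 10.09%, 6.45%, 7.76% and 6.15%. With 109 windows each share under lost regions rests on 14 matches or fewer. No genome sequence was used here, so the regions away from promoters were not searched.

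Genes of interest were read against all protein-coding genes, of which 1921 of 20033 (9.59%) had a lost region within 50 kb of their span. Of the 11503 genes with any region of both sgNC lists within 50 kb, the share was 16.7%. Among 15 gastric and trefoil genes there were 4, and among 18 intestinal genes there were 2. The 19 hepatic genes had 0. Of 15 glucose metabolism genes there were 2, of 26 epithelial and endoderm factors 2, of 18 basal, squamous and mesenchymal genes 2, of 17 growth control genes 2 and of 12 circadian clock genes 3. Among genes with a region of both sgNC lists, these were 4 of 9 gastric, 2 of 14 intestinal, 0 of 6 hepatic and 2 of 12 glucose metabolism genes. For endoderm factors it was 2 of 18, for basal and mesenchymal genes 2 of 11, for growth control 2 of 15 and for clock genes 3 of 10. All 8 lists together are small, and 1 region decides 3 of the 4 gastric genes. No lost region lay within 50 kb of HNF4A itself.

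The gastric genes were PSCA, a surface antigen, and the trefoil peptide genes TFF1, TFF2 and TFF3, which protect mucosa. The trefoil genes share a single lost region at chr21:42351126-42351637, just beyond TFF2, with percentiles of 51.2 and 40.8 and no peak in any induced or P1-antibody list. The region counted for PSCA lay 36.8 kb from it, and its nearest gene was JRK, at 10.2 kb. It was weak in the controls, at 14.4 and 22.0, and had a peak in all 8 induced lists, at percentiles from 22.9 to 99.2. The intestinal genes were CDH17, for the liver-intestine cadherin, with an internal region at 17.2 and 19.4, and LGALS4, for a galectin, with a region 37.6 kb away at 39.1 and 29.8. The nearest gene to the LGALS4 region was LGALS7, at 6.93 kb. Neither the CDH17 nor the LGALS4 region had an induced peak.

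NR5A2, a nuclear receptor of pancreas and liver, had its lost region over the promoter window printed above, at percentiles of 18.2 and 1.26 and with no induced peak. VDR, the vitamin D receptor gene, had 3 lost regions within 50 kb. The weakest of them, at 4.55 and 1.43 in the controls, was in all 8 induced lists at percentiles from 25.3 to 94.2, and the strongest, at 31.6 and 10.2, was in none. The third, at 19.9 and 4.64, was in 2. At this locus the regions that ranked lower in the controls were found in more induced lists.

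In the metabolic list, HK2, which encodes a hexokinase, had an internal region at 48.7 and 17.7 with 6 induced lists. PDK4, a kinase that limits pyruvate use, had one 12.3 kb away at 36.0 and 20.0 with 7. Among growth control genes, CDKN1A, for the p21 cell cycle inhibitor, had a region 34.7 kb away at 64.8 and 29.8. It was bound in all 8 induced lists at percentiles from 65.2 to 94.4. TGFBR2, a receptor of TGF-beta, had 3 internal regions at mean percentiles of 34.8, 33.3 and 30.9, found in 3, 8 and 1 induced lists.

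Of the clock genes, CRY2 had an internal region at 49.1 and 13.2, NR1D1 one 17.1 kb away at 41.1 and 14.1, and DBP the FAM83E promoter region, 14.9 kb away. The region counted for NR1D1 lay inside THRA. Of the basal and mesenchymal genes, S100A2 and TWIST2 had regions at 6.89 and 27.3 and at 27.0 and 36.1, with no induced peak. All of these regions except that of CDKN1A, the trefoil region and the FAM83E promoter had a percentile under 50 in both controls.

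The antibody to P1 isoforms, which the rule did not use, marked few lost regions. In sgNC cells 0 of 1093 lost regions held a peak in either replicate, from lists of 697 and 260 peaks. In sgP2 cells, whose P1-antibody lists were longer at 5200 and 3916 peaks, 11 lost regions held a peak in replicate 1 (1.01%, exact Clopper-Pearson 95% interval 0.503% to 1.79%) and 4 in replicate 2 (0.366%, 0.0998% to 0.934%). These intervals cover counting error only. Kept regions held P1-antibody peaks in 8.19% and 2.99% of cases in sgNC and in 53.7% and 45.8% in sgP2. These shares were above those of the lost regions in each of the 4 libraries. Of the 5133 partly kept regions, 12 and 4 held a peak in sgNC (0.234% and 0.0779%), and 318 and 209 in sgP2. From a mean sgNC percentile of 20 to 50, no region of any class held a peak in either sgNC list. The near absence of P1-antibody peaks in sgNC was thus shared with partly kept regions, and in that band with kept regions.

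The mean share of lost regions was 0.686% ± 0.453 (SD, n = 2) in sgP2 against 0 in both sgNC libraries. The groups did not overlap, and the two-sided exact permutation p was 0.333, the smallest that 2 against 2 allows (0.417 after Benjamini-Hochberg adjustment over 5 tests). The lost share lay below the kept share by a mean of 27.3 percentage points over the 4 libraries (two-sided exact permutation p = 0.125, the smallest possible, adjusted 0.312). Neither passed 0.05, and neither could. The sgP2 values are not separate from the rule, because the pan antibody sees P1 isoforms too. Lost regions were required to lack a pan peak in sgP2 cells, and kept regions were required to hold one. The choice of regions thus favoured the sgP2 gap, 53.7% and 45.8% of kept against 1.01% and 0.366% of lost regions. The test over the 4 libraries is therefore not separate evidence.

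The 15 lost regions with a P1-antibody peak were all marked in 1 sgP2 library each, and none in both. They include the region inside LMAN1L (chr15:74818692-74819032), at percentile 53.2 in sgP2 replicate 1. The region near GJA4, a gap junction gene, was at 47.6 in sgP2 replicate 2. The lowest of the 15, inside CLEC16A, was at 3.96. These 3 were chosen after their values were seen.

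In lines with an induced isoform, lost regions were often bound, though less often than kept regions. In Panc10.05, peaks were found in 36.1% and 44.4% of the 1093 lost regions with P1-α2, and in 43.6% and 40.1% with P2-α8. In BxPC3 the shares were 41.9% and 33.7% with P1-α2, and 16.8% and 18.1% with P2-α8. The matching values for kept regions were 71.3%, 73.3%, 68.0% and 65.9% in Panc10.05, and 73.6%, 65.8%, 46.8% and 45.0% in BxPC3. With regions of all strengths pooled, partly kept regions lay between the 2 classes in all 8 libraries. Within bands of control strength this order did not always hold. Under a mean sgNC percentile of 20, partly kept exceeded kept in every Panc10.05 library and in BxPC3 P2-α8 replicate 1. The shares were 51.9% and 41.1% in Panc10.05 P2-α8 replicate 1. In the remaining BxPC3 libraries partly kept lay below kept.

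**Figure D3:**
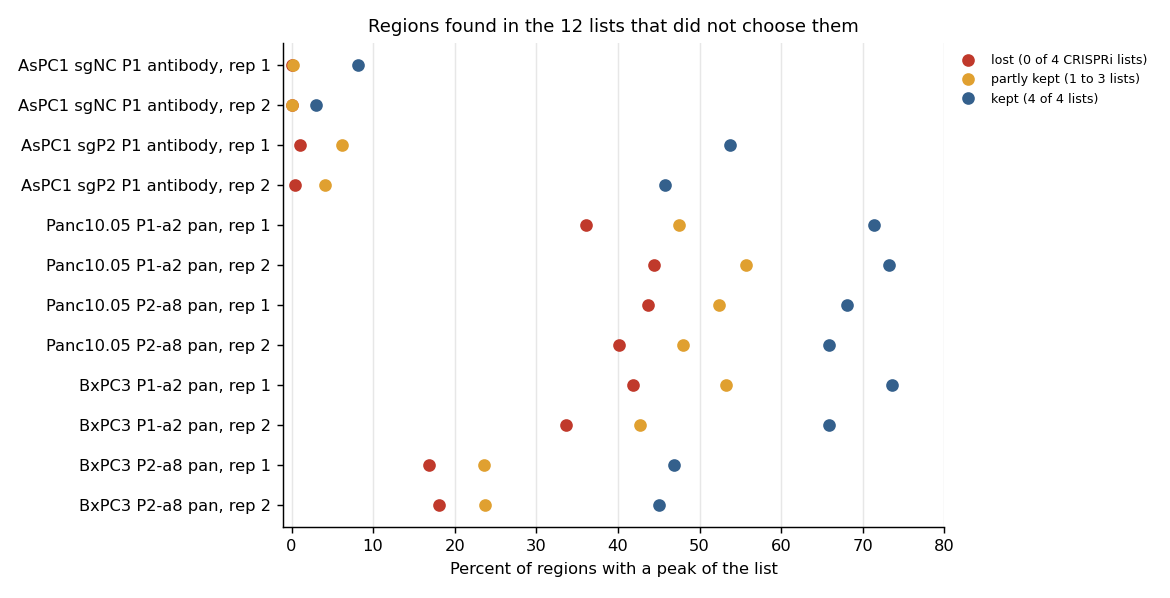
Percent of lost, partly kept and kept regions (horizontal axis) with a peak in each of the 12 lists that did not enter the selection; each point is 1 class in 1 library. The lost regions are lowest in all 8 induced lists, from 16.8% to 44.4%, and at 1.01% or less in the 4 P1-antibody lists.

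The lost share was 34.3% ± 11.0 (SD, n = 8) and the kept share 63.7% ± 11.4, a difference of -29.4 percentage points. It was lower in 8 of 8 libraries (two-sided exact permutation test swapping the classes within libraries, p = 0.0078125, the smallest possible, adjusted 0.0391). These libraries are 2 replicates of each line and isoform and all score the same regions, so they are not 8 independent units. The same limit holds for every later p over the 8 induced libraries. Part of the difference went with control strength. Within bands of mean sgNC percentile the difference was -5.97 points under 20, -12.3 from 20 to 50 and -18.9 above 50. Against partly kept regions of all strengths it was -9.00, a value not matched for control strength. In each of these comparisons the exact permutation p was again 0.0078125. Within the bands, the lost share lay below the partly kept share except from 20 to 50 in BxPC3 P2-α8 replicate 2. There it was 19.6%, against 18.1% of partly kept regions. The band differences from partly kept regions were not tested. The 56 kept regions under 20 are few, and bands do not match strength exactly within themselves. Against the P1 antibody the same bands gave -9.56, -5.18 and -30.1 points, and the difference was -2.30 against partly kept regions of all strengths. In the 20 to 50 band both classes were at 0 in both sgNC lists, and the exact permutation p was 0.5. For the other 3 comparisons it was 0.125, the smallest that 4 libraries allow. As above, the choice of regions favoured the sgP2 part of these differences.

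**Figure D4:**
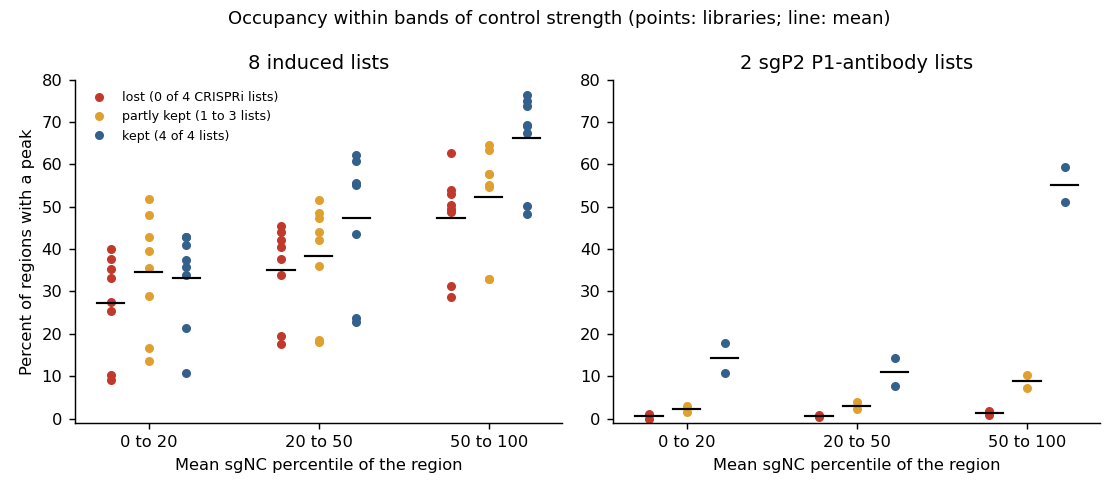
Percent of regions with a peak (vertical axis) in 3 bands of mean sgNC percentile (horizontal axis), for the 8 induced lists (left) and the 2 sgP2 P1-antibody lists (right); points are libraries and bars their mean. Lost regions lie below kept regions on average in each band, with differences of -5.97, -12.3 and -18.9 percentage points in the induced lists. In the sgP2 lists the choice of regions favours this order.

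By region, 412 of the 1093 lost regions (37.7%) had no peak in any induced list and 99 (9.06%) had one in all 8. For partly kept regions the shares were 25.5% and 12.8%, and for kept regions 12.4% and 31.0%. Where a lost region did have a peak, its median percentile in the induced lists was 52.0 to 59.4 depending on the library. For partly kept regions this median was similar, 50.1 to 58.3. Lists of different length and threshold do not allow these medians to be set against the percentiles in AsPC1. In Panc10.05, 23 lost regions (2.10%) had a peak in both P1-α2 lists and neither P2-α8 list, and 28 (2.56%) the reverse. Of kept regions these were 4.27% and 1.01%, and of partly kept regions 3.58% and 2.28%. In BxPC3 the numbers were 114 (10.4%) and 0, beside 12.6% and 0.0804% of kept and 12.6% and 0.0390% of partly kept regions. These shares were not tested.

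The isoforms were compared within each line. In Panc10.05 the lost share was 40.3% ± 5.82 (SD, n = 2) with P1-α2 and 41.9% ± 2.52 with P2-α8. The groups overlapped, with an exact permutation p of 1 for the difference of -1.60 points, less than the pooled replicate SD of 4.49, and its sign turned under several alternatives. In BxPC3 it was 37.8% ± 5.82 against 17.5% ± 0.906, without overlap, a difference of 20.3 points at an exact permutation p of 0.333, the smallest possible (adjusted 0.417).

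The BxPC3 difference went with list length. The P1-α2 lists held 41808 and 33737 peaks and the P2-α8 lists 12681 and 14666. With all 8 induced lists cut to their 12681 strongest peaks by fold, a setting added with the results in view, the lost shares in BxPC3 were 15.6% and 16.0% with P1-α2 and 16.8% and 15.6% with P2-α8. The difference was then -0.457 points (exact permutation p = 0.667). In Panc10.05 it was 3.16 points at that length (19.3% and 18.6% against 15.5% and 16.1%, exact permutation p = 0.333, the smallest possible). The lower share in lost than in kept regions remained at this length, at -24.6 points over the 8 libraries (exact permutation p = 0.0078125).

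The gap between kept and lost shares was also compared between isoforms. With the full lists it was 32.0 ± 4.46 points with P1-α2 and 25.1 ± 0.997 with P2-α8 in Panc10.05 (exact permutation p = 0.333, n = 2 each). In BxPC3 it was 31.9 ± 0.298 and 28.5 ± 2.18 (exact permutation p = 0.333, n = 2 each). With the induced lists at equal length the BxPC3 gap was 24.2 and 17.6 points with P1-α2 and 30.0 and 23.9 with P2-α8, so the direction turned and the groups overlapped (exact permutation p = 0.667). In Panc10.05 it was then 30.0 ± 3.81 and 20.3 ± 0.718 (exact permutation p = 0.333, n = 2 each). This contrast was added after the data were seen and its p-values are not adjusted.

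The 8 strongest lost regions with a peak in all 8 induced lists ranked from low to near the top of those lists. The region 115 kb from TFAP2C (chr20:56754551-56755013), which encodes an AP-2 transcription factor, was at 64.4 and 54.4 in sgNC and between 87.4 and 99.7 in the induced lists. The region inside PHACTR3 (chr20:59770355-59770895), for a phosphatase and actin regulator, was at 67.5 and 62.4 and between 56.6 and 97.6. That inside SLC6A4 (chr17:30229008-30229398), the serotonin transporter gene, was at 54.5 and 69.7 and between 69.8 and 99.4.

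The CXorf51A region reached 99.4 to 99.98 in the BxPC3 lists and 73.1 to 88.2 in Panc10.05. The regions near IYD, for a deiodinase, and TBC1D1, for a regulator of glucose transporter traffic, spanned 68.6 to 97.7 and 71.2 to 96.6. Those near SOWAHB and CRYBA4 were weaker, from 19.3 to 77.8 and from 14.8 to 74.9. These 8 were selected for a peak in every induced list, so their presence there is given by the choice.

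**Figure D5:**
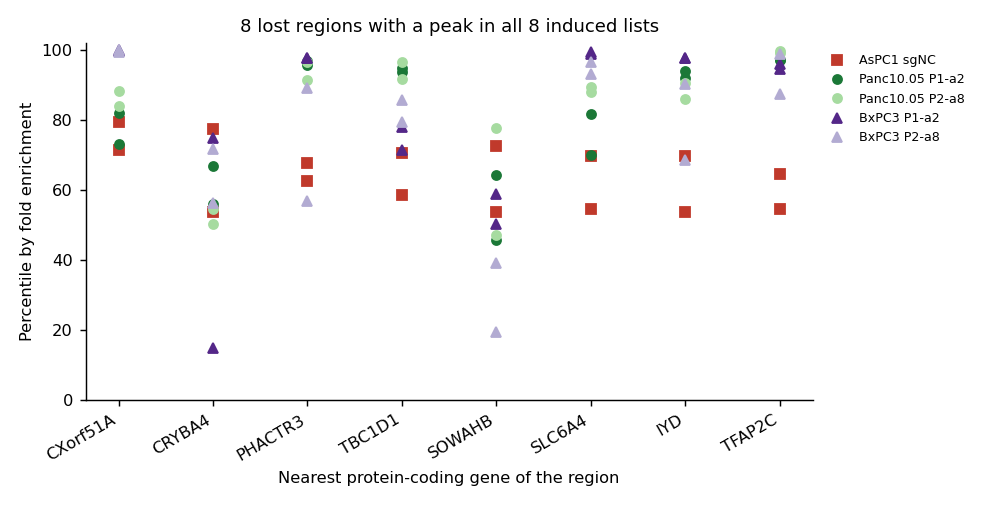
Percentile by fold enrichment (vertical axis) of 8 lost regions, named by nearest gene (horizontal axis), in the 2 sgNC lists (squares) and in the 8 induced lists (circles Panc10.05, triangles BxPC3). Values in the induced lists run from 14.8 near CRYBA4 to 99.98 near CXorf51A.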

How the data were processed

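HNF4α ChIP-seq peak lists of 18 libraries in 9 groups of 2 were used, and 14 input libraries without antibody were not analysed here. The authors called peaks per library. Per the submitters' processing notes, Bowtie2 2.2.9 and MACS2 2.2.7 were used and the builds mm10 and hg38 are named. The lists hold human chromosomes and were read as hg38 beside RefSeq GRCh38.p14. In the deposited lists fold enrichment is a linear ratio, p- and q-values are given as −log10, and the integer score and the summit offset (other) were deposited with them. These values are the authors' and were used within their own list alone.

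Peaks overlapping by 1 bp were merged, in Python 3.11.15 with pandas 2.3.3 and numpy 2.4.6. The merge gave the same regions as bedtools 2.31.1, and in simulated lists of 20308 peaks 200 of 200 planted lost regions were recovered. The planted peaks were removed from every simulated CRISPRi list, so this checks the code and not the effect of threshold or list length. Shares of regions were compared over libraries by exact permutation (two-sided), and the 5 p-values were adjusted by the Benjamini-Hochberg method (scipy 1.17.1). Nearest genes used the middle of a region and the span of protein-coding genes. The 50 kb windows counted any region that overlapped a gene span extended by 50 kb on each side. Distances to starts used the summit.

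Named regions were the 12 strongest by mean sgNC percentile, up to 12 at promoter windows, up to 3 per gene list, those in both sgP2 P1-antibody lists (none) and up to 8 found in all induced lists. The members, gene lists and rules were chosen with earlier results of these data known. Alternatives were other thresholds, overlap rules, list lengths, bands of strength, a replicate block and leaving out each library. The read depth is not given, so its precision is unknown. Some items that these rules or values would select are not reported here.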

Additional observations from a re-analysis of the deposited data

How the results depend on the processing

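The number of lost regions was 1093 and stayed within 1.5 times of that with a −log10 q of at least 5 in all lists, other overlap rules, or no CRISPRi peak within 1 kb. It was 249 at equal list length. With alternatives chosen after seeing the data, it was 678 and 6 for sgNC minimums of 5 and 20, and 351 for a minimum of 20 in all AsPC1 lists. Leaving out 1 library at a time gave 1260 to 7350. The highest, without sgNC replicate 2, admits every region of the long replicate 1 list, the value without sgNC replicate 1 was 1892, and without sgP2 replicate 2 it was 1702.

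The isoform difference in Panc10.05 (-1.60 points) turned to 1.47 under 50% reciprocal overlap, 1.70 for summits within 100 bp, 2.01 with AsPC1 lists of equal length and 3.16 with induced lists of equal length, and ran from -5.72 to 2.52 without 1 library (2.52 without P1-α2 replicate 1, 0.183 without P2-α8 replicate 1). That in BxPC3 (20.3) turned to -0.457 with induced lists of equal length, and ran from 14.2 to 24.4 without 1 library. Without 1 library, lost minus kept ran from -39.9 to -25.7 in induced lists and from -35.4 to -18.9 in P1-antibody lists, and the P1-antibody share of sgP2 minus sgNC from 0.218 to 1.15. Over all alternatives, lost minus kept ran from -39.9 to -5.97 in induced lists and from -35.4 to -2.30 in P1-antibody lists, the least against weak or partly kept regions, and was -11.3 in P1-antibody lists under 50% reciprocal overlap. In induced lists it stayed below 0 in all 24 alternatives, each with an unadjusted exact permutation p of 0.0156 or less. These p-values treat replicates of the same line and isoform as separate units. The P1-antibody differences carry the limit that the choice of regions sets in sgP2 cells.

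With the replicate number as a block the differences were the same by construction, 0.686, -1.60 and 20.3 points, and the smallest exact permutation p was 0.5. The numbers were not taken as pairs: replicate deviations over 13688 regions correlated at -0.0248, -0.0492 and 0.0569. Depth cannot be read from the lists, so a lost region cannot be told from one just under the threshold.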
